A study of Homo sapiens with 43 samples.

Results

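Induction of wild-type U2AF1 (WT) was examined in 4 RNA-seq libraries, taken by their labels from the 43 samples of the series: 2 of induced WT cells and 2 of uninduced WT cells. The cells were HEL, a human line from an erythroleukemia, and carried a stably transduced wild-type U2AF1. Induced cells had received doxycycline at 1 µg/ml for 48 hours, and the uninduced cells of that transduced line had received none. All were grown in medium with tetracycline-negative serum, and the labels call the libraries of a group biological replicates. The promoter that drives the transgene and whether the line is 1 clone are not given in the sources used here. Doxycycline and the transgene were present together in the induced cells, so that their effects on RNA cannot be told apart within this line. RNA libraries were made after rRNA depletion and sequenced as paired ends. Lines with U2AF1 carrying S34F or Q157R, with 2 induced libraries and 1 uninduced library each, entered the fit and are described only beside the WT values.

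U2AF1 is the small subunit of the U2 auxiliary factor, which binds the AG dinucleotide at the 3′ splice site beside the large subunit U2AF2, which binds the polypyrimidine tract, and so marks the site for the U2 snRNP. Mutations of U2AF1 recur in myeloid malignancies, and HEL cells are of that lineage, with erythroid and megakaryocytic traits. RNA-seq counts per gene show the amount of RNA and not its splicing, so the values below are levels of genes. A level is given as CPM, the counts of a gene relative to the size of its library, scaled by the trimmed mean of M values (TMM), and a difference is a log2 fold change, induced over uninduced, with its standard error (SE). A gene was called where edgeR's quasi-likelihood test with the replicate number as a block gave a Benjamini-Hochberg adjusted p under 0.05 over all 21300 genes tested.

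Of these 21300 genes, 89 were called between induced and uninduced WT cells (0.418%), of which 54 were higher (0.254%) and 35 lower (0.164%). Before adjustment, 3227 genes (15.2%) had a p under 0.05. Genes called higher were of mixed kinds, with proteins of adhesion and the matrix among the larger rises. Genes called lower were on the whole more abundant, and many are known for chromosome condensation, the spindle and cytokinesis. The median log2 fold change was 1.41 over the 54 genes called higher and -0.82 over the 35 called lower. The median of mean log2 CPM was 3.21 over the 54 and 6.72 over the 35, and 28 of the 54 and all 35 had a mean log2 CPM of at least 3, as did 10253 of the 21300. Both pairs of like-numbered libraries had the called direction in all 89. The induced and uninduced libraries did not overlap in 50 of the 54 and in 34 of the 35. Among all genes this held for 17.8% on the higher and 16.3% on the lower side. The calls rest on these same libraries, so both traits follow largely from the call and are no separate support. Protein-coding genes made up 42 of the 54 and 34 of the 35. The number of calls depends on the fit: without the replicate block 0 genes were called (1363 at an unadjusted p under 0.05), DESeq2 with the block called 253 higher and 281 lower, and a fit of nuclear protein-coding genes alone called 20 higher and 8 lower. Leaving out 1 WT library gave 2 calls without induced replicate 1, 1 without induced replicate 2, 458 without uninduced replicate 1 and 19 without uninduced replicate 2.

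**Figure D1:**
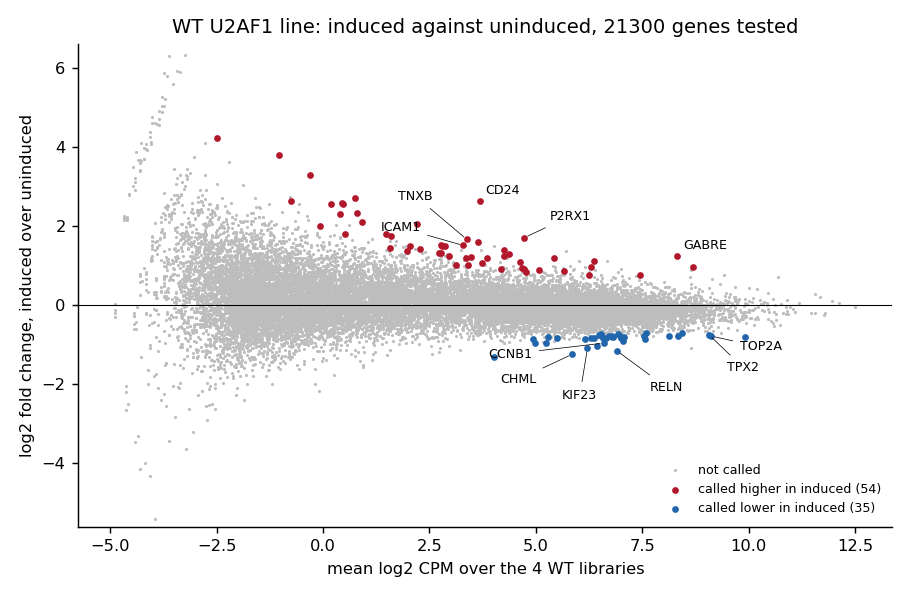
Each point is 1 of 21300 genes, with the mean log2 CPM over the 4 WT libraries on the x axis and the log2 fold change, induced over uninduced, on the y axis. The 54 genes called higher spread from low to high levels, and the 35 called lower sit at middle and high levels with differences between -1.31 and -0.69.

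Counts that named a gene were 40370092 and 27795768 in the induced libraries, against 24866906 and 32127920 in the uninduced ones. Mapped reads assigned to no gene feature were 22.7% and 22.7% of all reads in induced libraries, against 19.5% and 19.0% in uninduced ones. Whether they lie between genes or within introns is not shown by the counts. Reads mapped to several places were 13.3% and 17.6% in induced libraries, against 15.1% and 15.5% in uninduced ones. The part of these shares in the results was not tested. All 14 markers of HEL cells reached 1 CPM in every library. Of 6 lymphoid markers none reached 1 CPM in every library, with summed levels of 1.67 and 4.49 CPM in induced cells, against 1.37 and 2.69 CPM in uninduced cells, and CD3D and MS4A1 were at 0. Of 6 monocyte and granulocyte markers, LYZ and CSF1R reached 1 CPM everywhere, with summed levels of 36.2 and 46.9 CPM in induced cells, against 25.2 and 41.4 CPM in uninduced cells. Of 6 stromal and epithelial markers, PECAM1 and KRT8 did so, and their list summed to 429 and 379 CPM in induced cells, against 347 and 316 CPM in uninduced cells. Most of that sum was PECAM1 alone, at 396.5 and 305.2 CPM in induced cells, against 323.7 and 281.7 CPM in uninduced cells. COL1A1, COL1A2, COL3A1 and EPCAM stayed below 1 CPM in every WT library. The part of the markers of other cell types in the results was not tested.

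U2AF1, the induced gene, was not called. U2AF1 (chromosome 21, 43092956 to 43107587 on GRCh38, minus strand) had 766 and 299 counts in induced cells, against 313 and 376 counts in uninduced cells. That is 19.1 and 11.0 CPM in induced cells and 13.4 and 12.6 CPM in uninduced cells, and the groups overlapped, with replicate 1 of the induced cells the highest of the 4 libraries. The log2 fold change was 0.18 ± 0.22 (edgeR, adjusted p = 0.756). A near-identical copy, U2AF1L5, lies on the same chromosome at 6484623 to 6499261 and had 32 and 11 counts in induced cells, against 15 and 14 in uninduced cells. Reads mapped to several places were counted apart from the genes, so a read placed equally at both copies would enter neither count. Which part of U2AF1 the transgene holds is not given in the sources used here. The counts therefore check the label of induction in neither direction. Its partner U2AF2 stood at 378 and 278 CPM in induced cells, against 399 and 348 CPM in uninduced cells, at a log2 fold change of -0.20 ± 0.13 (edgeR, adjusted p = 0.498).

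The genes called lower give the comparison its most uniform group, and their promoters are shown before their values. In human cells, genes used in G2 and mitosis often carry a cell cycle genes homology region, with the core letters TTTGAA near the start of transcription, and CCAAT boxes upstream of it. The MuvB complexes that bind the first element repress such genes in resting cells and, with B-MYB and FOXM1, activate them late in the cycle, while the factor NF-Y binds CCAAT. Below are the windows from 250 bases before to 50 bases after the start of 4 genes called lower, from RefSeq on GRCh38.p14, 5′ to 3′ on the plus strand, with TTTGAA in capitals. They were picked after the values were seen, from genes on the plus strand with 1 match close to the start.
KIF23, chr15:69414099-69414398: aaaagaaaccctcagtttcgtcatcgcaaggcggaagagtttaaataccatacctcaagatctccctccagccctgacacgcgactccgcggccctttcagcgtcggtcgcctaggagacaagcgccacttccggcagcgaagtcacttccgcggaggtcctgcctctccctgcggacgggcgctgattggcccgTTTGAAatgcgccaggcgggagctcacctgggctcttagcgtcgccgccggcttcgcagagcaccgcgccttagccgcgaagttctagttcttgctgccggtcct
PLK1, chr16:23678639-23678938: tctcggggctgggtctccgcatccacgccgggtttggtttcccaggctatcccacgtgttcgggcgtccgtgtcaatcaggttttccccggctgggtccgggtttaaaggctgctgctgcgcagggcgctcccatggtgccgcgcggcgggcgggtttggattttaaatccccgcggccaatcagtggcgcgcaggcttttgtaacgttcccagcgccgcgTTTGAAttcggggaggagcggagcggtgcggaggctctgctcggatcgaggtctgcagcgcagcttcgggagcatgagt
CENPA, chr2:26785806-26786105: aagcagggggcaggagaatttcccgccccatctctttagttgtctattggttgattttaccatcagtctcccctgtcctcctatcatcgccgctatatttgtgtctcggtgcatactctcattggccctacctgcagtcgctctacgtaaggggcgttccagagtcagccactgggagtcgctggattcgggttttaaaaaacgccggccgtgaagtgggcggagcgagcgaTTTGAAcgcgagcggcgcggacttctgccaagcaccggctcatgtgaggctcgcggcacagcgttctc
INCENP, chr11:62123761-62124060: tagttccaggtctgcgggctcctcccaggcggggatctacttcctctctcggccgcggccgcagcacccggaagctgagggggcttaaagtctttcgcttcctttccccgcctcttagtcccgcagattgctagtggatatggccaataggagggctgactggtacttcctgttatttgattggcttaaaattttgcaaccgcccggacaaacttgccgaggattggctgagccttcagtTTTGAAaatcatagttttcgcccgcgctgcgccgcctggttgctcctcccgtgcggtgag

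The first base of the match lay at -55 in KIF23, -29 in PLK1, -18 in CENPA and -10 in INCENP, counted from the start with no position 0. Windows were found by symbol for 31 of the 34 protein-coding genes called lower and for 32 of the 42 called higher. Only the first window listed for a symbol was used, so positions and shares refer to 1 start per gene. For CENPA the gene annotation begins at 26764289, upstream of the window shown. TTTGAA, read on both strands, stood in 14 of the 31 windows of genes called lower (45.2%), in 7 of the 32 of genes called higher (21.9%), in 10.1% of 8098 windows of tested protein-coding genes with a mean log2 CPM of at least 3, and in 15.4% of all 27305 windows. CCAAT, also on both strands, stood in 67.7%, 21.9%, 37.7% and 35.7% of the same sets. Both motifs together were in 12 of the 31 windows of genes called lower (38.7%) and in 2 of the 32 of genes called higher (6.25%), against 4.41% of the 8098 windows. Matches of the motifs can share at most 1 letter, where they meet end to end. A match is a description of the window and not a site in use.

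A kinesin of mitosis had the third largest fall among the named genes. KIF23, the kinesin of the centralspindlin complex that divides the cell, had 48.6 and 53 CPM in induced cells, against 114 and 103 CPM in uninduced cells. Both induced libraries were below both uninduced ones, at a log2 fold change of -1.09 ± 0.14 (edgeR, adjusted p = 0.0143). KIF14, another kinesin of cytokinesis, had 82.1 and 78.5 CPM in induced cells, against 153 and 125 CPM in uninduced cells. KIF20A, which acts at the central spindle, had 81.8 and 58.2 CPM in induced cells, against 143 and 93.8 CPM in uninduced cells, and was called as well. Of 13 mitotic kinesins tested, a list drawn up after values were seen, 3 were called lower (KIF23, KIF14 and KIF20A), against 0.164% of all genes. None was called higher, and all 13 had lower levels in both induced libraries than in both uninduced ones, as 16.3% of all genes tested did. Their log2 fold changes lay between -1.09 and -0.37, with a median of -0.66. Of the 13, 0 were called without the replicate block, 0 when either induced library was left out, 4 without replicate 1 and 1 without replicate 2 of the uninduced cells, and 1 each with the block and only the WT libraries and with only protein-coding genes. DESeq2 with the block called 12 of them lower.

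Condensin, the ring complex that compacts mitotic chromosomes, had 4 of 8 subunits called lower, against 0.164% of all genes. SMC2, the core ATPase subunit of both condensins, fell to 106 and 88.0 CPM in induced cells, against 182 and 179 CPM in uninduced cells (log2 fold change -0.90 ± 0.13, edgeR, adjusted p = 0.0221). NCAPD2 and NCAPH, subunits of condensin I, and NCAPG2, a subunit of condensin II, were also called. NCAPD2 had 226 and 268 CPM in induced cells, against 444 and 405 CPM in uninduced cells. NCAPH had 89.0 and 63.3 CPM, and NCAPG2 103 and 69.9 CPM, in induced cells, against 141 and 126 CPM for NCAPH and 162 and 134 CPM for NCAPG2 in uninduced cells. The other 4 of the 8 subunits, a list also drawn up after values were seen, missed the threshold, with log2 fold changes from -0.66 to -0.47. The median over the 8 was -0.72, with no subunit positive. The number called was 0 without the replicate block, when either induced library was left out or without replicate 2 of the uninduced cells, 1 each with the block and only the WT libraries and with only protein-coding genes, and 6 by DESeq2 with the block, while the median stayed between -0.77 and -0.63 under all 11 alternatives.

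Regulators of the division itself were lower. CCNB1, the cyclin that drives entry into mitosis, had 72.3 and 66.5 CPM in induced cells, against 142 and 128 CPM in uninduced cells. The groups did not overlap, and the log2 fold change was -0.96 ± 0.14 (edgeR, adjusted p = 0.0215). PLK1, a kinase of spindle assembly and mitotic exit, had 87.5 and 104 CPM in induced cells, against 165 and 177 CPM in uninduced cells (-0.84 ± 0.14, edgeR, adjusted p = 0.0342). CCNA2, the cyclin of S phase and G2, had 93.8 and 109 CPM in induced cells, against 177 and 179 CPM in uninduced cells. FOXM1, a transcription factor of late cell cycle genes, had 115 and 79.2 CPM in induced cells, against 169 and 161 CPM in uninduced cells. TPX2, a spindle protein that activates Aurora A, had 408 and 423 CPM in induced cells, against 671 and 732 CPM in uninduced cells. TOP2A, the topoisomerase that untangles sister chromatids, had 387 and 462 CPM in induced cells, against 677 and 779 CPM in uninduced cells. TYMS, which makes thymidylate for DNA synthesis, had 143 and 142 CPM in induced cells, against 227 and 267 CPM in uninduced cells, although the annotation places ENOSF1 and TYMSOS on the other strand of that locus. In each of these 7 genes both induced libraries lay below both uninduced ones.

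These 7 and KIF20A were the 8 genes called lower in the list of 40 genes of DNA replication and cell division, against 0.164% of all genes called lower. None of the 40 was called higher, and the list median was -0.67, against 0.01 over all genes tested and -0.03 over protein-coding genes. All 40 had a negative log2 fold change, as did 10476 of all 21300 genes, and 30 had both induced libraries below both uninduced ones, as did 16.3% of all genes. The members that missed the threshold included the proliferation antigen MKI67, at 628 and 420 CPM in induced cells, against 981 and 713 CPM in uninduced cells (log2 fold change -0.70 ± 0.14, edgeR, adjusted p = 0.0579). The sliding clamp PCNA had 102 and 57.3 CPM in induced cells, against 156 and 102 CPM in uninduced cells (-0.71 ± 0.32, edgeR, adjusted p = 0.363), where replicate 1 stood above replicate 2 in both groups. The list summed to 6404 and 5071 CPM in induced cells, against 9295 and 8436 CPM in uninduced cells. The call depends on the block and on single libraries: 0 of the 40 were called without the replicate block, without replicate 1 or replicate 2 of the induced cells, or without replicate 2 of the uninduced cells, 1 with the block and only the WT libraries, 2 with only protein-coding genes and 24 by DESeq2 with the block, while the list median stayed between -0.76 and -0.52 under all 11 alternatives. In a bulk sample, fewer cells in division and less RNA per dividing cell cannot be told apart.

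**Figure D2:**
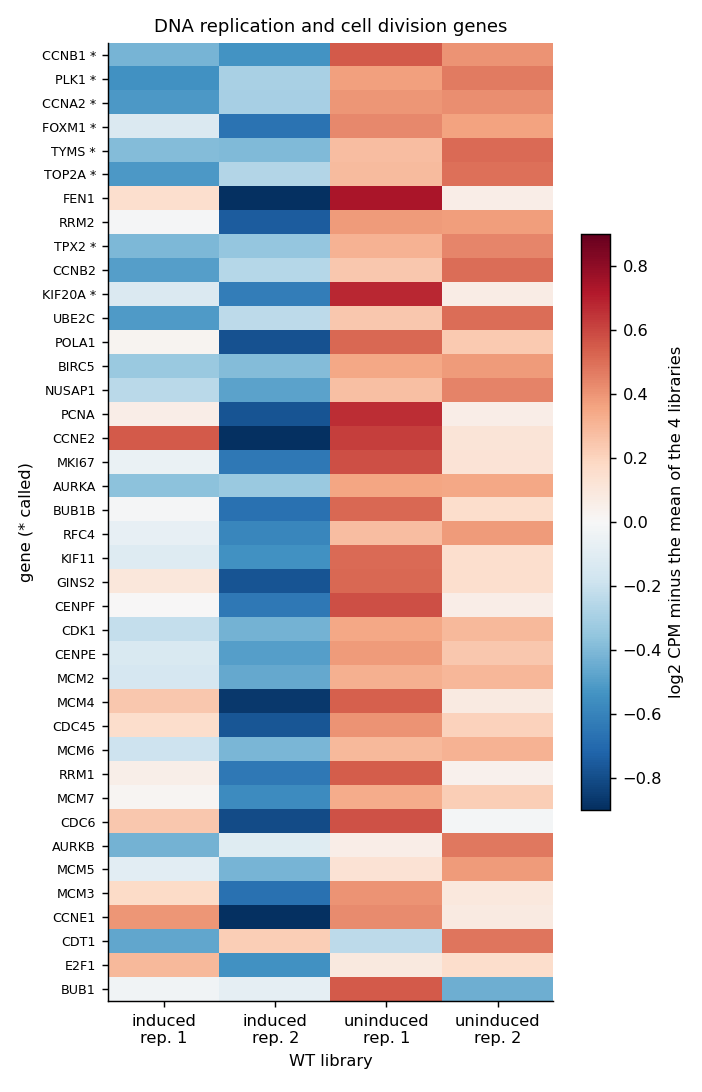
Rows are the 40 genes of DNA replication and cell division ordered by log2 fold change, columns are the 4 WT libraries, and colour is log2 CPM minus the mean of the 4 libraries, blue below it and red above it. An asterisk marks the 8 called genes, and the induced columns are mostly blue beside mostly red uninduced ones, with paler colours for the replication genes in replicate 1 of the induced cells.

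Centromere, spindle and nuclear envelope genes outside that list were among the called ones too. CENPA, the histone H3 variant of centromeres, had 25.8 and 28.6 CPM in induced cells, against 48.6 and 56.8 CPM in uninduced cells (log2 fold change -0.96 ± 0.17, edgeR, adjusted p = 0.0441). INCENP, the scaffold of the chromosomal passenger complex, had 74.5 and 68.5 CPM in induced cells, against 128 and 109 CPM in uninduced cells. Its partners AURKB, BIRC5 and CDCA8 had log2 fold changes between -0.73 and -0.54 and missed the threshold. LMNB1, the lamin B1 of the nuclear envelope, had 205 and 220 CPM in induced cells, against 362 and 367 CPM in uninduced cells. LMNA, the A-type lamin, stood at 220 and 201 CPM in induced cells, against 214 and 190 CPM in uninduced cells, and was not called. HMMR, DLGAP5 and ASPM, proteins of the spindle, fell by 0.84, 0.82 and 0.69 on the log2 scale. The remaining names among the 35 include CDCA3, a trigger of mitotic entry, and NIN, the centrosomal protein ninein, at 66.5 and 42.8 CPM in induced cells, against 108 and 86.0 CPM in uninduced cells.

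Of the histone genes, 2 were called lower. H3C1, a replication-dependent gene of histone H3, had 33.2 and 15 CPM in induced cells, against 57.7 and 33.7 CPM in uninduced cells, so that the groups nearly touched (log2 fold change -0.96 ± 0.18, edgeR, adjusted p = 0.0481). H3C12 had 70.0 and 54.2 CPM in induced cells, against 129 and 92.8 CPM in uninduced cells. Of 56 replication-dependent histone genes tested, gathered by symbol after values were seen, these 2 were called lower, against 0.164% of all genes, and 54 had a negative log2 fold change, against 10476 of all 21300. The median over the 56 was -0.60. None of the 56 was called without the replicate block, with only the WT libraries, with only protein-coding genes or when either induced library was left out, and 1 was called when either uninduced library was left out. DESeq2 with the block called 19 lower. Histone genes have near-identical coding sequences, and reads mapped to several places were counted at no gene, so that levels of single histone genes are uncertain. Their messages mostly lack poly(A) tails, and rRNA-depleted libraries retain such messages.

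Falls of protein-coding genes outside division were led by CHML and RELN. CHML, a Rab escort protein, had 38 and 37.3 CPM in induced cells, against 92.2 and 85.8 CPM in uninduced cells (log2 fold change -1.24 ± 0.18, edgeR, adjusted p = 0.0215), and overlaps OPN3 in the annotation. RELN, a secreted matrix protein best known from brain development, had 116 and 56.1 CPM in induced cells, against 233 and 139 CPM in uninduced cells (-1.16 ± 0.14, edgeR, adjusted p = 0.0143). Within each like-numbered pair RELN was lower in the induced library, although the replicates of a group stood far apart. INTS13, a subunit of the Integrator complex that cleaves nascent snRNA, had 69.9 and 52.9 CPM in induced cells, against 152 and 103 CPM in uninduced cells. RPAP3, a co-chaperone that helps assemble RNA polymerases, had 35.0 and 32.8 CPM in induced cells, against 62.7 and 58.8 CPM in uninduced cells. DGKI, a diacylglycerol kinase, had 22.8 and 22.7 CPM in induced cells, against 37.7 and 45.2 CPM in uninduced cells.

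**Figure D3:**
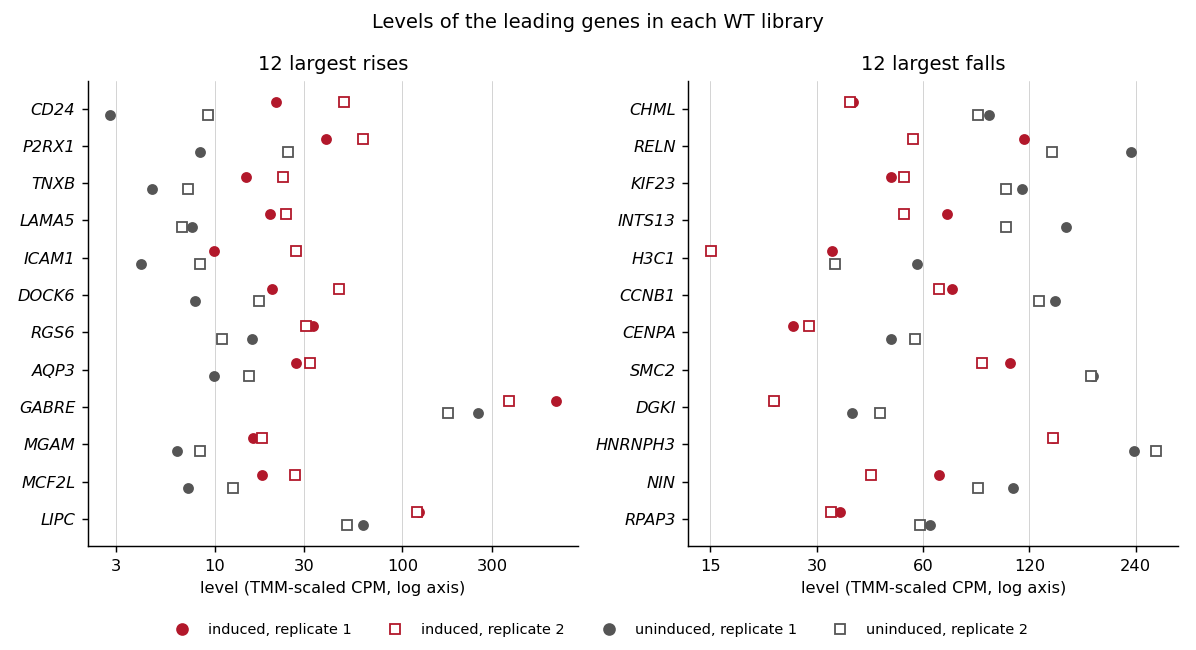
Levels in TMM-scaled CPM on a log axis are shown for the 12 largest rises on the left and the 12 largest falls on the right, with 1 point per WT library, red for induced and grey for uninduced, filled for replicate 1 and open for replicate 2. Red and grey points do not overlap within any of the 24 genes, which were picked as called from these same libraries. In some the points of a group lie on each other.

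Among 25 hnRNP genes 1 was called, against 0.164% of all genes called lower. HNRNPH3, a member of the hnRNP H family of splicing regulators, had 140 and 140 CPM in induced cells, against 237 and 274 CPM in uninduced cells (log2 fold change -0.86 ± 0.13, edgeR, adjusted p = 0.0242). It overlaps PBLD and RUFY2 in the annotation. HNRNPD, a regulator of mRNA decay, was further from 0 but noisier, at 395 and 192 CPM in induced cells, against 693 and 495 CPM in uninduced cells (-1.08 ± 0.20, edgeR, adjusted p = 0.0524). All 25 hnRNP genes had a negative log2 fold change, with a median of -0.32, where 10476 of all 21300 genes were negative, and 16 had both induced libraries below both uninduced ones, as did 16.3% of all genes. None of the 25 was called without the replicate block, when either induced library was left out or without replicate 2 of the uninduced cells, and DESeq2 with the block called 8 lower. None of the 28 genes of U2AF and 3′ splice site recognition and none of the 17 SR protein genes was called, with medians of -0.16 and -0.24. DDX46, an RNA helicase of the U2 snRNP, had the lowest value of the first of these lists, at 209 and 118 CPM in induced cells, against 301 and 218 CPM in uninduced cells (-0.70 ± 0.15, edgeR, adjusted p = 0.0677). No gene was called among 14 factors of nonsense-mediated decay (median -0.12) or among 21 genes listed from general knowledge for altered splicing in cells with mutant U2AF1 (median -0.12), such as MACROH2A1 and PTBP1. Without replicate 2 of the uninduced cells the median of the decay factors was 0.05. Counts per gene do not show isoforms.

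Adhesion and matrix genes were among the larger rises. CD24, a lipid-anchored glycoprotein of the cell surface, had 21.3 and 49.0 CPM in induced cells, against 2.79 and 9.26 CPM in uninduced cells. Both induced libraries stood above both uninduced ones, although replicate 2 was higher than replicate 1 in each group (log2 fold change 2.63 ± 0.23, edgeR, adjusted p = 0.00299). TNXB, the matrix glycoprotein tenascin X, had 14.7 and 23.1 CPM in induced cells, against 4.68 and 7.22 CPM in uninduced cells (1.66 ± 0.19, edgeR, adjusted p = 0.0143). LAMA5, the laminin alpha 5 chain of basement membranes, had 19.8 and 24.0 CPM in induced cells, against 7.59 and 6.75 CPM in uninduced cells (1.60 ± 0.20, edgeR, adjusted p = 0.0143). ITGAL and ITGAM, alpha subunits of the beta 2 integrins of leukocytes, were also higher. ITGAL had 5.46 and 15 CPM in induced cells, against 2.27 and 2.32 CPM in uninduced cells, and ITGAM had 10.3 and 14.7 CPM in induced cells, against 5.32 and 6.98 CPM in uninduced cells. These 5 were the called members of 39 tested genes in the list of integrins, laminins and matrix genes, against 0.254% of all genes called higher. That list was written with earlier results of these data known and includes CD24, which is none of the 3 kinds. None of the 39 was called lower, and the list median was 0.09, against 0.01 over all genes. The number called higher was 0 without the replicate block, 2 without replicate 1 and 1 without replicate 2 of the induced cells, and 7 without replicate 1 and 2 without replicate 2 of the uninduced cells, with 1 called lower without replicate 1 of the uninduced cells. It was 3 each with the block and only the WT libraries and with only protein-coding genes, 8 by DESeq2 with the block and 9 without the count filter. CD24 has near-identical copies elsewhere in the genome, so that its counts are uncertain. TNXB has a partial copy beside it in the genome, and ITGAL, LAMA5 and TNXB overlap other annotated genes, so that with the strand setting not stated part of their counts may belong to neighbours.

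ICAM1, the surface ligand of the integrin that holds ITGAL and a textbook target of NF-kB, had 9.94 and 27.2 CPM in induced cells, against 4.07 and 8.36 CPM in uninduced cells. The groups did not overlap (log2 fold change 1.51 ± 0.22, edgeR, adjusted p = 0.0215). Its promoter window is shown because it held the letters GGAAATTCC, 1 of 3 spellings of the kappa B motif searched on both strands, here in capitals with the first base at -186. The other 2 spellings, each 1 base longer, were in none of the windows of called genes.
ICAM1, chr19:10270870-10271169: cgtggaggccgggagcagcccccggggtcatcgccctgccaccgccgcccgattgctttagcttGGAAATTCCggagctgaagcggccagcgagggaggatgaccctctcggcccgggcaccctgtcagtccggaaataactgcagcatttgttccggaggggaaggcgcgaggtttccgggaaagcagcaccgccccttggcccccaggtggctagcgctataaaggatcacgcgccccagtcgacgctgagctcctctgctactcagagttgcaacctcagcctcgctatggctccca

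Over all 27305 windows GGAAATTCC stood in 0.472%, and in 1 of the 32 windows of genes called higher. Of 26 cytokine, chemokine and NF-kB target genes tested, ICAM1 was the 1 gene called, against 0.254% of all genes called higher. The list median was 0.20. The cytokine IL6 had 10.4 and 9.57 CPM in induced cells, against 5.10 and 3.79 CPM in uninduced cells (1.17 ± 0.28, edgeR, adjusted p = 0.0942). The NF-kB target TNFAIP2 had 57.3 and 66.6 CPM in induced cells, against 33.2 and 29.6 CPM in uninduced cells (0.96 ± 0.20, edgeR, adjusted p = 0.0666). NFKB1, which encodes the p105 and p50 proteins, had 59.1 and 65.8 CPM in induced cells, against 84.3 and 79.3 CPM in uninduced cells and was not called.

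Channels, receptors and enzymes made up most of the other large rises. P2RX1, the ATP-gated cation channel of platelets, had 39.1 and 61.9 CPM in induced cells, against 8.41 and 24.5 CPM in uninduced cells (log2 fold change 1.71 ± 0.26, edgeR, adjusted p = 0.036). It was the 1 gene called among 35 megakaryocyte and platelet genes, against 0.254% of all genes called higher. The median of that list was 0.15. GABRE, the epsilon subunit of GABA-A receptors and the most abundant of the 12 largest rises, had 655 and 368 CPM in induced cells, against 253 and 174 CPM in uninduced cells (1.24 ± 0.20, edgeR, adjusted p = 0.0383). AQP3, a channel for water and glycerol, had 27.1 and 32.2 CPM in induced cells, against 9.95 and 15.3 CPM in uninduced cells. RGS6, which shortens G protein signals, had 33.5 and 30.9 CPM in induced cells, against 15.7 and 10.9 CPM in uninduced cells. DOCK6 and MCF2L, guanine nucleotide exchange factors, rose by 1.38 and 1.20 on the log2 scale. MGAM, the intestinal maltase-glucoamylase, had 16 and 17.9 CPM in induced cells, against 6.35 and 8.39 CPM in uninduced cells, and its neighbouring paralog MGAM2 was also called. Reads placed equally at both paralogs would be counted at neither, so that their levels are uncertain. LIPC, the hepatic lipase, had 122 and 120 CPM in induced cells, against 61.6 and 50.9 CPM in uninduced cells (1.11 ± 0.14, edgeR, adjusted p = 0.0143).

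Smaller rises included a lysosomal gene and a gene of growth control. TPP1, a lysosomal peptidase, had 110 and 109 CPM in induced cells, against 49.4 and 62.9 CPM in uninduced cells. BTG2, an antiproliferative gene induced by p53 and by growth factors, had 41.2 and 32.7 CPM in induced cells, against 21.7 and 19.2 CPM in uninduced cells (log2 fold change 0.84 ± 0.15, edgeR, adjusted p = 0.0432). BTG2 was the 1 called gene of 25 p53 targets (median 0.13) and of 31 immediate early and ERK feedback genes (median 0.14). The CDK inhibitor CDKN1A had 29.1 and 23.4 CPM in induced cells, against 22.5 and 15.7 CPM in uninduced cells and was not called (0.47 ± 0.19, edgeR, adjusted p = 0.276). None of 14 G1 cyclins, CDKs and CDK inhibitors was called, with a median of -0.25. NDUFV2, a subunit of complex I, had 16.3 and 8.14 CPM in induced cells, against 5.02 and 3.46 CPM in uninduced cells. It was the 1 called gene of 57 nuclear oxidative phosphorylation subunits, whose median was -0.15. The single calls of these lists stand beside 0.254% of all genes called higher.

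The medians of lincRNA and antisense genes were above 0. The median log2 fold change was 0.22 over 1555 lincRNA genes, of which 5 were called higher and 1 lower. It was 0.16 over 1656 antisense genes, of which 1 was called higher. Of all genes tested, 0.254% were called higher and 0.164% lower. Positive medians were not particular to these classes: sense-intronic genes had 0.20 and transcribed unprocessed pseudogenes 0.30. Processed pseudogenes had -0.15 and protein-coding genes -0.03. FTX, a long noncoding RNA of the X-inactivation centre, had 34 and 38.7 CPM in induced cells, against 17.9 and 20.3 CPM in uninduced cells (log2 fold change 0.93 ± 0.14, edgeR, adjusted p = 0.0281). MIR22HG, the host gene of miR-22, had 6.85 and 3.46 CPM in induced cells, against 2.19 and 1.48 CPM in uninduced cells. The share of reads assigned to no gene feature, given above, was higher in both induced libraries as well. Its part in these values was not tested. Among protein-coding genes with a mean log2 CPM of at least 3, 64.0% of the 25 called higher overlapped a gene on the other strand, as did 47.1% of the 34 called lower and 58.2% of all 9752 tested. In the U2AF1 eCLIP libraries of induced WT cells, which read RNA crosslinked to the tagged protein, counts were summed over both biological replicates. At least 10 counts were found for 68.0% of these 25, 44.1% of these 34 and 53.8% of the 9752. Replicate 1 was far deeper, with 1 count equal to 0.457 CPM, against 3.26 CPM in replicate 2, so the sums do not show replication. Median counts of these sets were 15, 5.5 and 11 for U2AF1, and 13, 5 and 11 for U2AF2 eCLIP.

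**Figure D4:**
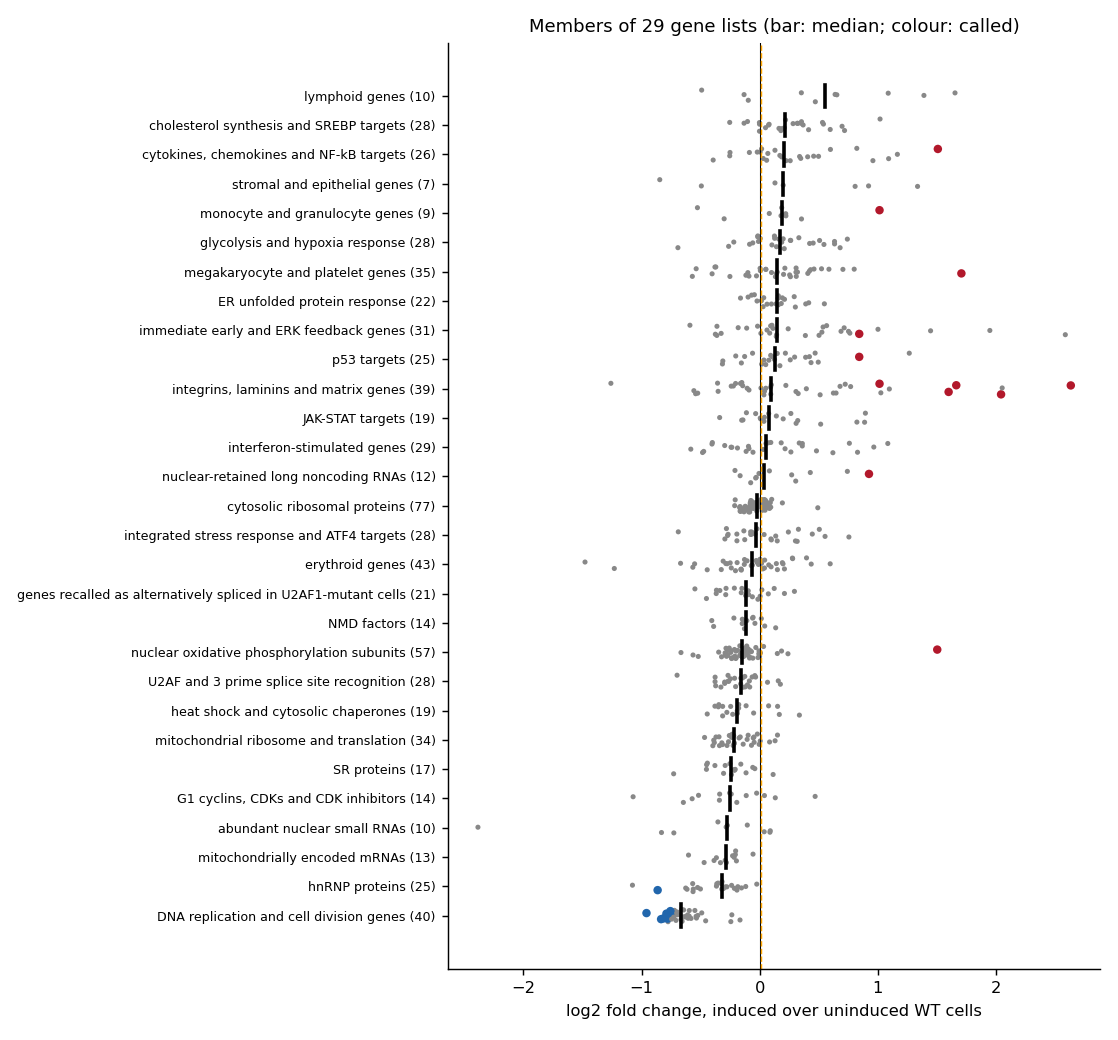
Each point is the log2 fold change, induced over uninduced, of a tested member of 1 of 29 gene lists, with the number tested in brackets, a black bar at the list median and colour for called genes, red higher and blue lower. The list of DNA replication and cell division lies lowest, with its median at -0.67, and the next lowest is that of the hnRNP genes at -0.32.

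Other lists differed between the pairs or held few called genes. The 28 glycolysis and hypoxia genes had a median log2 difference of -0.44 in replicate 1 and 1.08 in replicate 2, and the 28 cholesterol synthesis genes had -0.21 in replicate 1 and 0.70 in replicate 2, with no gene called in either list in the main fit. The glycolysis median was 1.15 without replicate 1 and -0.53 without replicate 2 of the uninduced cells. The cholesterol median was 0.67 and -0.21 in the same fits. GAPDH, the glycolytic dehydrogenase, had 2555 and 5033 CPM in induced cells, against 3347 and 2668 CPM in uninduced cells, in opposite directions in the 2 pairs. Summed levels of the glycolysis list were 11125 and 18214 CPM in induced cells, against 14906 and 8953 CPM in uninduced cells. The 13 mitochondrially encoded mRNAs had medians of 0.18 in replicate 1 and -0.67 in replicate 2. No member was called among 28 integrated stress response and ATF4 targets, 22 genes of the unfolded protein response of the endoplasmic reticulum, 19 heat shock genes, 29 interferon-stimulated genes, 19 JAK-STAT targets, 43 erythroid genes or 77 cytosolic ribosomal protein genes, with list medians from -0.19 to 0.15. Of these 7 lists, 4 had medians of opposite sign in the 2 pairs. They were 0.27 in replicate 1 and -0.15 in replicate 2 for the ATF4 targets, -0.22 and 0.16 for the ribosomal proteins, 0.25 and -0.05 for the interferon-stimulated genes, and 0.08 and -0.14 for the erythroid genes. Single libraries moved these medians across 0: that of the ATF4 targets was -0.29 without replicate 1 and 0.30 without replicate 2 of the uninduced cells, and that of the ribosomal proteins was 0.14 without replicate 1 and -0.21 without replicate 2 of the induced cells. The interferon median was -0.15 and 0.26, and the erythroid median -0.20 and 0.12, without replicate 1 and without replicate 2 of the uninduced cells. The 34 genes of the mitochondrial ribosome (median -0.22), 10 abundant nuclear small RNAs (-0.28), 10 lymphoid genes (0.56) and 7 stromal and epithelial genes (0.20) had no called member either. The lymphoid median was 0.33 without replicate 1 and 1.02 without replicate 2 of the uninduced cells. That of the stromal and epithelial genes was 0.14 and 0.36 in the same fits, and that of the small RNAs ran from -0.63 without replicate 1 of the induced cells to -0.13 without replicate 2 of the uninduced cells. The median of the mitochondrial ribosome genes stayed between -0.28 and -0.14 under all 11 alternatives. FTX was the 1 called gene of 12 nuclear-retained long noncoding RNAs (median 0.04), and ITGAM that of 9 monocyte and granulocyte genes (median 0.19). Of all genes, 0.254% were called higher. The monocyte and granulocyte median was 0.01 without replicate 1 and 0.88 without replicate 2 of the uninduced cells. The erythroid carbonic anhydrase CA1 had 541 and 363 CPM in induced cells, against 742 and 579 CPM in uninduced cells (-0.57 ± 0.14, edgeR, adjusted p = 0.0972).

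The differences of the 2 WT pairs were weakly correlated. Across 10253 genes with a mean log2 CPM of at least 3, the log2 differences of replicate 1 and replicate 2 had a Pearson r of 0.32, and 63.0% of genes had the same sign. Across the same genes, replicate 1 of the WT line had an r of 0.58 with replicate 1 of the S34F line and 0.71 with replicate 1 of the Q157R line. Genes are not independent replicates, and pairs of different lines share no library but share their replicate number. Libraries of like number also deviated together from their group means, as set out with the processing.

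The genes called in the WT line were mostly on the same side in the mutant lines. Of the 54 called higher, 51 were positive in the S34F pair and 53 in the Q157R pair, where 51.6% and 50.9% of all genes tested were positive. Of the 35 called lower, 0 were positive in either mutant pair. Among genes with a mean log2 CPM of at least 3, 33.8% of S34F and 43.0% of Q157R differences were positive. LIPC, among the 12 largest rises, did not rise in the S34F pair, at 70.9 CPM in induced cells, against 72.8 CPM in uninduced cells. CD24 stood at 8.32 CPM in induced S34F cells of replicate 1, against 3.06 CPM in uninduced S34F cells, and at 46.6 CPM in induced Q157R cells of replicate 1, against 1.89 CPM in uninduced Q157R cells. The difference between the WT induction and the mean of both mutant inductions was tested in the same fit and called 0 of 21300 genes (0%), with 1536 genes at an unadjusted p under 0.05 (7.21%) and 20 genes called by DESeq2. Of the 24 leading genes AQP3 had the lowest unadjusted p of this difference, 0.00261 by edgeR, at 1.03 ± 0.27 on the log2 scale (adjusted p = 0.569). Each mutant line has 1 uninduced library, so these values have no replicate check of their own.

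**Figure D5:**
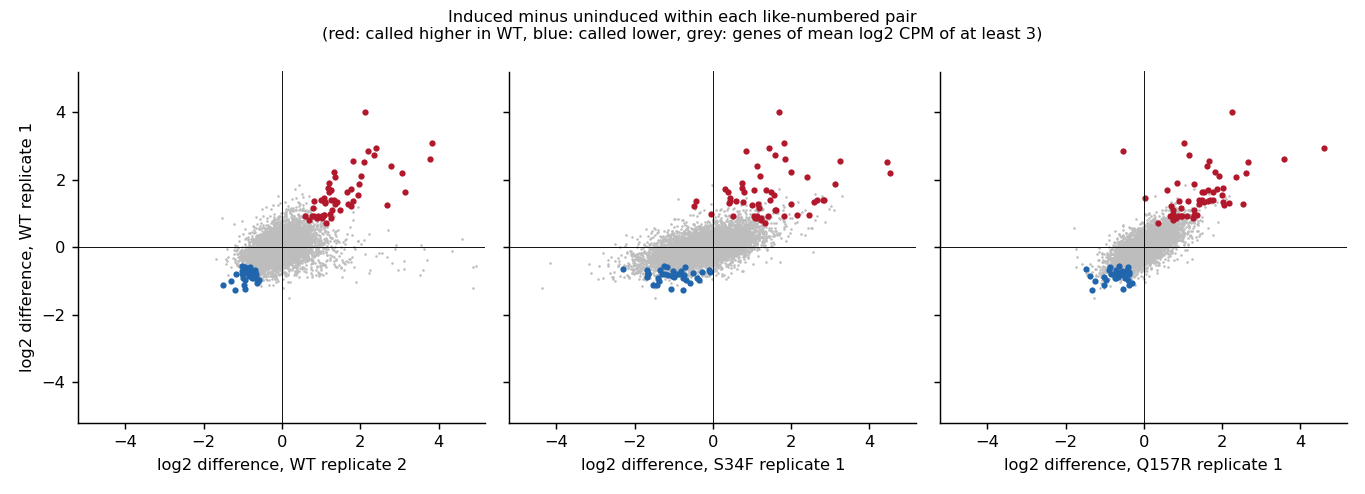
The log2 difference, induced minus uninduced, in WT replicate 1 on the y axis is plotted against that of WT replicate 2, S34F replicate 1 and Q157R replicate 1 on the x axes, with genes called higher in red, called lower in blue and other genes with a mean log2 CPM of at least 3 in grey. Called genes lie mostly in the upper right and lower left corners, and the grey cloud is tilted more in the mutant panels than in the WT panel.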

How the data were processed

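The authors' deposited table held raw counts of reads for 58347 gene entries, per the file headers and the whole numbers in each column, with no normalization. Tools listed in the submitters' processing notes, with no role for each, are HISAT2, STAR (2.5.3a and 2.7.0f), SAMtools, HTSeq, DESeq2, edgeR and cutadapt, with the build GRCh38.p10. The annotation release and the strand setting of the counting are not given in the sources used here. Rows for reads that named no gene entered neither library sizes nor tests, and counts of genes made up 49.5% to 56.1% of reads in the 4 WT libraries. Names, types and coordinates came from GENCODE 29, which matched 58084 entries.

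The 10 RNA-seq libraries (6 groups) were fitted with edgeR 4.0.16 in R 4.3.3, with TMM scaling, filterByExpr at its minimum count of 10, robust quasi-likelihood F tests and Benjamini-Hochberg adjustment over 21300 genes at 0.05. The model had 1 mean per group and the replicate number as a block, which left 3 residual degrees of freedom. The SE is the size of the log2 fold change divided by the square root of F. Like-numbered libraries pair by the rule of the comparison, and their deviations from group means correlated at r of 0.202 to 0.6181 in 12 of 12 comparisons, of which 6 are distinct because 2 libraries of a group deviate as mirror images. Log2 differences within a pair used a prior count of 1. The script was checked on simulated counts.

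Members and lists were chosen with earlier results of these data known. The rule named U2AF1, U2AF1L5 and U2AF2, then, among called protein-coding genes with a mean log2 CPM of at least 3 that differed in the same direction in both pairs, the 12 largest rises and falls, then up to 4 called members of each list, or the 2 most abundant where none was called. Other names were chosen after their values were seen, as were the lists of kinesins, condensin, passenger complex, lamins and histones. Labels call the replicates biological and do not say that cultures were separate, so p-values measure the spread between these samples. That spread draws on the induced libraries of the mutant lines too, because the 4 WT libraries alone leave 1 of the 3 residual degrees of freedom. Alternatives were no block, only WT libraries, DESeq2 1.42.0, RLE scaling, no filter, nuclear protein-coding genes only, and each WT library left out. An exact permutation test of 2 against 2 cannot go below 0.333 and was not used. The eCLIP counts served as a description, and the freCLIP and TimeLapse-seq samples were not analysed here.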

Additional observations from a re-analysis of the deposited data

How the results depend on the processing

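All 89 called genes kept their direction under each of the 11 alternatives that gave them a value, but the number of calls did not hold. Without the replicate block, the fits called 0 genes with all 10 libraries and 0 with the WT libraries only (1363 and 864 genes at an unadjusted p under 0.05), and with the block and only the 4 WT libraries 41 (31 higher, 10 lower), which leaves 1 residual degree of freedom. DESeq2 with the replicate block called 534 (253 higher, 281 lower), 86 of them among the 89. RLE size factors called 60 higher and 54 lower, a fit without the count filter 877 (515 higher, 362 lower), and nuclear protein-coding genes alone 28 (20 higher, 8 lower). The cause was not tested. Leaving out 1 WT library gave 1 to 458 calls (1 to 312 higher, 0 to 146 lower): 2 without induced replicate 1, 1 without induced replicate 2, 458 without uninduced replicate 1 and 19 without uninduced replicate 2. The difference between WT and mutant inductions called 0 to 283 genes when 1 library was left out, with 283 without uninduced WT replicate 1, and 20 by DESeq2 and 115 without the filter. The median log2 fold change of all genes lay between -0.02 and 0.03 under the alternatives, against 0.01. Of 72 named genes, the call was lost for 32 without the block, 11 with only the WT libraries, 15 with protein-coding genes alone, and 30, 31, 1 and 26 without induced replicate 1, induced replicate 2, uninduced replicate 1 and uninduced replicate 2, and it was gained for 2 each by DESeq2, without the filter and without uninduced replicate 1. A group left with 1 library was assumed to vary like the others.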
